A study of Rattus norvegicus with 12 samples.

Results

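Mx proteins are large GTPases related to dynamin that assemble into rings and block the replication of RNA viruses, and their genes are standard reporters of interferon signalling because type I interferons switch them on. In rats Mx1 is a nuclear protein active against influenza viruses, while Mx2 is cytoplasmic and active against vesicular stomatitis virus. Interferon alpha binds a receptor whose kinases activate transcription factors, and a complex that contains Irf9 then binds interferon-stimulated response elements in target promoters, a route that hepatocytes are known to use.

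The Mx genes were described on all probe sets that the platform annotation gives for Mx1 or Mx2, which are 3 of 31042 tested probe sets and 2 of 14217 named genes. Mx1 was measured by probe set 1371015_at, and Mx2 by probe sets 1387283_at and 1369202_at. No probe set with several symbols held either name. The samples are primary hepatocytes of Wistar rats, released with collagenase and enriched on Percoll, and cultured from the day after isolation with 250 U/ml rat interferon alpha or without it. There were 4 groups of 3 Affymetrix arrays, namely interferon alpha for 3 h, untreated controls at 3 h, interferon alpha for 6 h and untreated controls at 6 h. The strain label, Wistar, is the same for all groups. Values are deposited log2 RMA values, in which a difference of 1 is a doubling of the signal. Each group has replicates labelled 1 to 3 and called biological, without a statement of how many animals they came from, and the number of arrays limits the precision.

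Array medians ran from 5.17 to 5.22 log2, lower quartiles from 3.84 to 3.93, and correlations between arrays from 0.979 to 0.997. The 9 measured hepatocyte markers had means over all arrays between 11.3 log2 (Hnf4a) and 14.7 (Alb), and their list mean lay between 13.2 and 13.4 on each array. Levels of different probe sets cannot be ranked against each other. Of markers of other cells, those below the lower quartile of all levels were 2 of 8 Kupffer cell and macrophage genes, 1 of 4 cholangiocyte, 1 of 6 stellate cell, 1 of 4 endothelial and 3 of 8 lymphocyte and NK cell genes. The list means over the arrays ran from 6.13 to 7.16, 5.47 to 5.90, 4.64 to 4.92, 3.76 to 4.66 and 4.02 to 4.20 log2 in that order. Some of these genes were bright, such as Cd14 at 11.9 log2, Epcam at 11.3 and Lyz2 at 10.5. By limma none of these 6 lists had a gene called at 3 h or 6 h, with or without the replicate number as a block. Over all probe sets 0.387% rose at 6 h and 0.00644% at 3 h by limma. With the block 1.06% and 0.0934% rose, so the absence of calls in such short lists is near the background. At an unadjusted p under 0.05, 1 hepatocyte marker passed at 6 h, and 1 endothelial and 1 lymphocyte marker passed at 3 h. Of all probe sets 2.56% passed upwards and 1.13% downwards at 6 h, and the 3 h share is not given. Arrays of 1 replicate number resembled each other across groups, and 1 Mx2 probe set followed the replicate number more than the treatment, so it is described apart. Fewer responding cells and less RNA per cell cannot be told apart in such bulk samples.

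The promoter of Mx1 is shown because the known route described above ends at promoter elements, although binding and promoter activity were not measured. It comes from RefSeq, build GRCr8, at chr11:50294557-50294856 on the minus strand, and covers 250 bases before the start in that table and 50 after it. Capitals mark the bases from the start on.

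Mx1: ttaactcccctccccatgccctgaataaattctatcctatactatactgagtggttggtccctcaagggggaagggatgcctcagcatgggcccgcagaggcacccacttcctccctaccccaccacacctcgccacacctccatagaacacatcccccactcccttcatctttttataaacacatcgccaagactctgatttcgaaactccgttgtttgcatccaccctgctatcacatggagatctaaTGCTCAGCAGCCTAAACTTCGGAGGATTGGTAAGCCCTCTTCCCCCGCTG

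Neither of 2 motifs searched on both strands had a match in this window. The search took exact matches in these 300 bases only, so variants and elements farther from the start would be missed. The first, GAAANNGAA, is a pair of half-sites of the interferon-stimulated response element and was found in 9.71% of the 33469 promoters of 300 bases in the table. The second, TTCNNNGAA, is the gamma-activated sequence, reads the same on both strands and was found in 8.87% of them.

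Mx1 rose with interferon alpha at 6 h, and its probe set was bright in treated cells and dim in untreated ones. The 3 arrays of interferon alpha at 6 h had 7.88, 9.63 and 7.52 log2 in replicates 1 to 3, against 4.07, 4.36 and 3.62 in the 6 h controls. The groups did not overlap, which held for 4.29% of all probe sets, and the lowest treated array lay more than 3 log2 above the highest control. The means were 8.34 ± 1.13 log2 with interferon alpha and 4.02 ± 0.37 in controls (SD, n = 3 each), a rise of 4.33 ± 0.51 log2 (SE), 20.1-fold, with an adjusted p of 0.00365 by limma. Over all probe sets 0.387% rose in this comparison, and Mx1 ranked 7 of 31042 by the size of its rise. The call was lost without all arrays of any 1 replicate number (adjusted p from 0.0642 to 0.197), and held in 3 of 3 such fits with the replicate number as a block (0.000462 to 0.0358). In controls the probe set stood between the 16.8th and 40.4th percentile of its array, and how much of so dim a signal is background was not measured. In the 6 h treated arrays it stood between the 74.8th and 91.2nd percentile.

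At 3 h Mx1 had 5.44, 6.69 and 5.63 log2 with interferon alpha, against 4.57, 3.74 and 3.71 in controls. Mx1 and 1387283_at each had every treated array above every control, a pattern that 4.53% of all probe sets showed. The mean of 5.92 ± 0.68 log2 with interferon alpha was 1.91 ± 0.51 higher than the control mean of 4.01 ± 0.49 (SD, n = 3 each), 3.77-fold, but did not pass over all probe sets (adjusted p = 1.00 by limma). In that comparison 0.00644% of probe sets rose, and 0.0934% with the replicate number as a block. With that block and all arrays the Mx1 difference did not pass (adjusted p = 0.145 by limma). Of 3 fits with the block and without 1 replicate number, 1 passed, namely that without replicate 1 (2.44 log2, adjusted p = 0.0462).

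Mx2 on probe set 1387283_at also rose at 6 h, starting from a brighter level in untreated cells. Interferon alpha arrays at 6 h had 10.74, 11.08 and 10.68 log2 in replicates 1 to 3, against 9.37, 8.15 and 8.29 in controls. The treated arrays lay close together and the control of replicate 1 stood above the other controls. The means were 10.83 ± 0.22 log2 with interferon alpha and 8.60 ± 0.67 in controls (SD, n = 3 each), a rise of 2.23 ± 0.37 log2 (SE), 4.69-fold (adjusted p = 0.0316 by limma, 0.00273 with the replicate block). The call was lost without any 1 of 9 arrays (adjusted p from 0.0515 to 0.187), namely each of the 6 interferon alpha arrays, control replicate 3 at 3 h, and control replicates 2 and 3 at 6 h. A fit restricted to arrays of 6 h lost it too (0.0782).

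At 3 h this probe set had 9.86, 9.94 and 10.13 log2 with interferon alpha, against 9.64, 8.13 and 8.58 in controls. The groups did not overlap, and the narrowest distance was again at the control of replicate 1. The mean of 9.97 ± 0.14 log2 with interferon alpha was 1.19 ± 0.37 above the control mean of 8.78 ± 0.78 (SD, n = 3 each), 2.28-fold, and did not pass (adjusted p = 1.00 by limma). With the replicate block and all arrays it did not pass either (adjusted p = 0.359 by limma). Without replicate 1 in all groups the difference was 1.68 log2, with an adjusted p of 0.113, and of 0.00452 with the block besides. Of 3 fits with the block and without 1 replicate number, only this 1 passed.

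**Figure D1:**
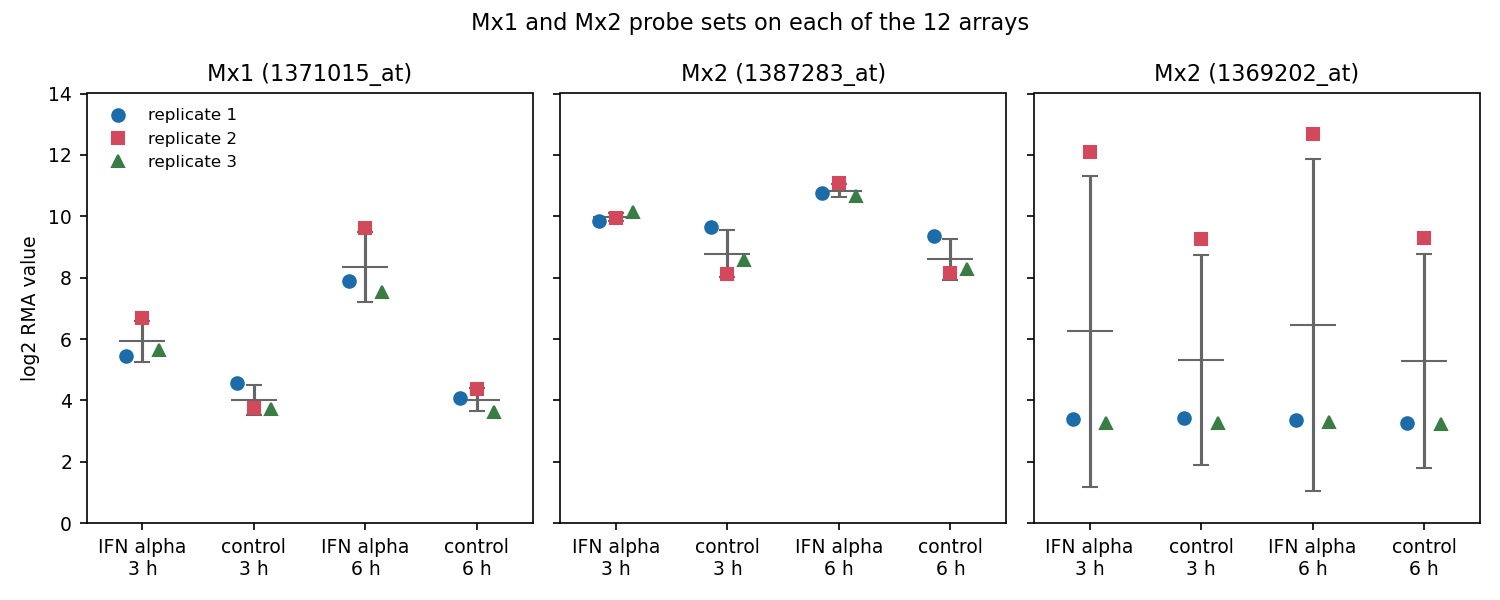
Deposited log2 RMA value of each Mx probe set on each array (vertical axis) in the 4 groups (horizontal axis), with replicates as symbols and the group mean ± SD (n = 3) as grey bars. Mx1 reached 7.52 to 9.63 with interferon alpha at 6 h, against 3.62 to 4.36 in the 6 h controls, and Mx2 probe set 1369202_at was above 9 on the 4 arrays of replicate 2 alone.

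The second Mx2 probe set, 1369202_at, was set apart by replicate number. In replicate 2 it had 12.10 log2 with interferon alpha at 3 h, against 9.26 in the control, and 12.69 with interferon alpha at 6 h, against 9.30 in the control. In replicates 1 and 3 it lay between 3.25 and 3.38 log2 on the 4 interferon alpha arrays and between 3.25 and 3.43 on the 4 control arrays. These 8 arrays showed it between the 6.14th and 10.6th percentile of the array, below the lower quartile, whereas treated replicate 2 arrays showed it at the 98.6th and 99.2nd percentile.

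Within replicate 2 the treated minus control difference of 1369202_at was 2.84 log2 at 3 h and 3.39 at 6 h, 7.15-fold and 10.5-fold. In replicates 1 and 3 the difference ran from -0.05 to 0.08 log2 over both times. Over all arrays the fit gave 1.18 ± 3.11 log2 at 6 h and 0.93 ± 3.11 at 3 h (SE, limma adjusted p = 1.00 for each), with errors larger than the differences. With the replicate block the 6 h difference had an SE of 0.63 and an adjusted p of 0.675. The group means of this probe set therefore describe no array.

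The other Mx2 probe set showed no such division, as 1387283_at had its lowest control values in replicate 2. Both Mx2 probe sets are annotated to the same gene and the same RefSeq transcript, and RefSeq lists Mx3 as a synonym of Mx2. Rats are known to carry a further Mx sequence of that name closely related to Mx2, and the files do not state which of them each probe set detects. Why the 2 probe sets differ was not tested.

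For each probe set, the arrays of a replicate number were called set apart when all 4 lay above or below all other 8. The distance between the nearest arrays was 5.83 log2 for 1369202_at, the largest for replicate 2 and the second largest for any number. Of all tested probe sets, 25 (0.0805%) were set apart by 2 log2 or more, and 19 of these had a gene symbol. Among them were 6 RT1 genes, the rat MHC, or 31.6% of the named ones, whereas 0.149% of all named probe sets were RT1 genes. This pattern was noticed in the values, so the counts are a description. Beside Mx2, those set apart by more than 5 log2 were Lcn2, a siderophore-binding protein of the acute phase, higher in replicate 1, and 2 probe sets that are not named.

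**Figure D2:**
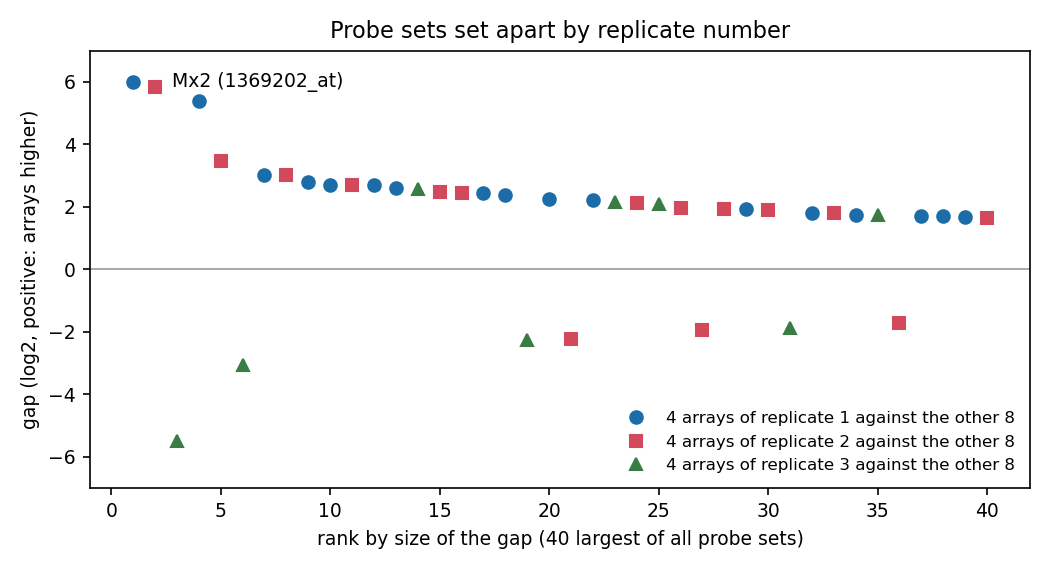
The 40 probe sets with the largest distance between the 4 arrays of 1 replicate number and the nearest of the other 8, ranked by size (horizontal axis), with the distance in log2 (vertical axis, negative where the 4 arrays were lower). Mx2 probe set 1369202_at stands at 5.83, second of all, with replicate 2 higher.

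The size of the Mx response differed between replicates in the same way at both times and on both responding probe sets. At 6 h the treated minus control difference of Mx1 was 3.82, 5.27 and 3.90 log2 in replicates 1 to 3, and at 3 h it was 0.87, 2.95 and 1.92. For Mx2 on 1387283_at it was 1.38, 2.93 and 2.39 log2 at 6 h and 0.22, 1.81 and 1.55 at 3 h. Replicate 2 gave the widest difference and replicate 1 the narrowest in each of these 4 comparisons.

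Other antiviral genes also differed between replicates. Of 29 other antiviral effectors, 22 were highest in replicate 1 among the 6 h controls and 21 among the 3 h controls, while replicate 2 was highest for 20 in the 6 h treated arrays and 21 in the 3 h treated arrays. Among controls Mx2 on 1387283_at was highest in replicate 1 at both times, and Mx1 at 3 h but not at 6 h. The median treated minus control difference of these genes in replicates 1 to 3 was 1.57, 2.56 and 1.96 log2 at 6 h and 0.27, 1.40 and 1.06 at 3 h, the same order as for Mx1 and Mx2. Of 8 Kupffer cell and macrophage markers, replicate 1 was highest for 7 and 6 in the 3 h and 6 h treated arrays and for 7 and 6 in the 3 h and 6 h controls. Their list means were 6.25 to 7.15 log2 with interferon alpha and 6.13 to 7.16 in controls. Cd163 and Adgre1 (3.72 and 3.09 log2 over all arrays) were below the lower quartile, while Csf1r, C1qa, Clec4f and Cd68 were at 5.09, 5.63, 5.75 and 6.95, Lyz2 at 10.5 and Cd14 at 11.9. Of 4 endothelial markers, replicate 1 was highest for 2 and 3 in the 3 h and 6 h treated arrays and for 4 and 3 in the controls, and of 8 lymphocyte and NK cell markers for 2 and 3 in treated arrays and for 7 and 5 in controls. Of 6 stellate cell markers, replicate 1 was highest for 1 and 1 in treated arrays and for 4 and 3 in controls. Of 4 cholangiocyte markers, it was highest for 1 and 1 in treated arrays and for 1 and 0 in controls. The share of all probe sets that were highest in each replicate number was not counted. Whether these counts are particular to the listed genes was therefore not tested. The part of any of these cells in the Mx values was not tested either.

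**Figure D3:**
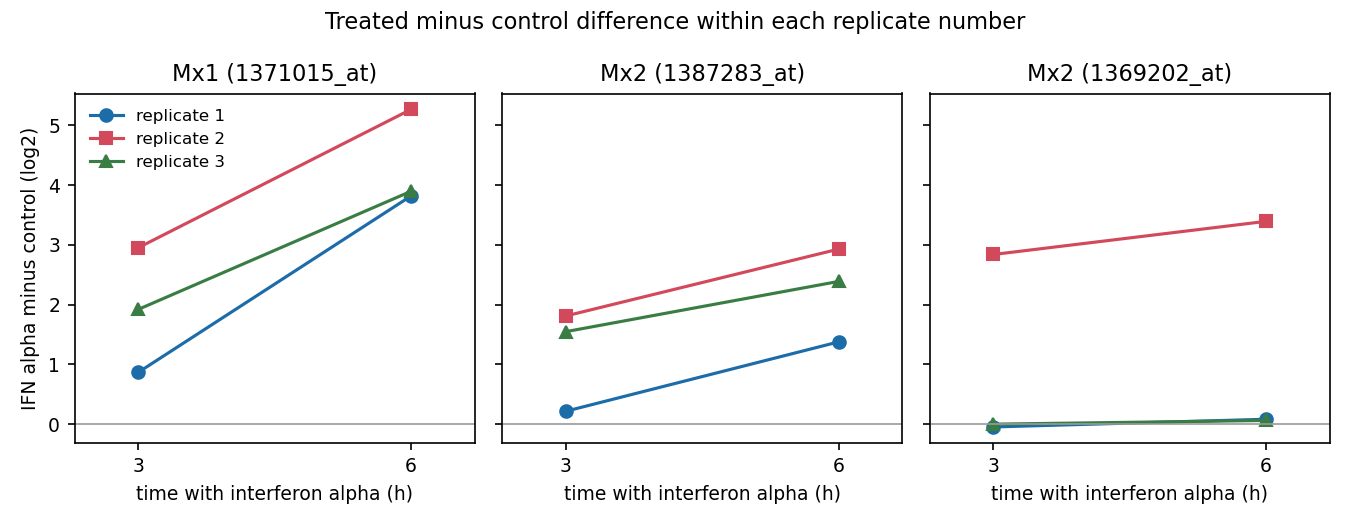
Treated minus control difference in log2 (vertical axis) at 3 h and 6 h (horizontal axis) within each replicate number, for the 3 Mx probe sets. Mx1 and 1387283_at were above 0 in all replicates, lowest in replicate 1 and highest in replicate 2, while 1369202_at differed by more than 0.1 in replicate 2 alone.

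Averaged over both times, Mx1 was 3.12 ± 0.36 log2 higher with interferon alpha, 8.69-fold (adjusted p = 0.00227 by limma, 0.0844 to 0.138 without 1 replicate number), and Mx2 on 1387283_at 1.71 ± 0.26 higher, 3.27-fold (0.0155). In this comparison 0.432% of probe sets rose. The average for Mx2 missed the threshold without any 1 of 6 arrays (adjusted p from 0.0501 to 0.0557), which were treated replicates 2 and 3 at 3 h, treated replicate 2 at 6 h, control replicate 3 at 3 h, and control replicates 2 and 3 at 6 h. Probe set 1369202_at averaged 1.05 ± 2.20 log2 and did not pass (adjusted p = 1.00).

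Within arrays, the change of Mx1 exceeded that of Mx2 on 1387283_at by 2.44, 2.34 and 1.51 log2 in replicates 1 to 3 at 6 h and by 0.65, 1.14 and 0.37 at 3 h, so it was larger in 6 of 6 pairs. Over both times the excess was 1.41 log2 (exact permutation of treatment within time, two-sided p = 0.015, smallest possible 0.005). At 6 h alone it was 2.1 log2 (exact p = 0.10, the smallest that 3 against 3 arrays allow) and at 3 h 0.72 log2 (exact p = 0.30). Flipping the signs of the 6 differences gave an exact p of 0.0312, the smallest possible with 6 pairs. Both tests take the times as separate, although each replicate number serves at both. With the 3 replicate numbers as units the excess was positive in 3 of 3, and the exact p was 0.25, the smallest that 3 units allow. The test compares signal changes of probe sets that start at different brightness and sets no level of one gene against the other.

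Within treated cells the Mx1 signal was higher at 6 h than at 3 h, with 7.52 to 9.63 log2 at 6 h and 5.44 to 6.69 at 3 h. The difference was 2.42 ± 0.51 log2 (SE), 5.37-fold, the second largest rise of all probe sets. It did not pass by limma (adjusted p = 0.0790), and passed with the replicate block (0.00316), where 4.78% of all probe sets rose, against 0.232% without the block. Mx2 on 1387283_at was 0.86 ± 0.37 log2 higher at 6 h than at 3 h (adjusted p = 0.445, 0.109 with the block). Its groups did not overlap, as in 7.73% of probe sets. Of 3 fits with the block and without 1 replicate number, this difference passed in 1, namely that without replicate 1 (adjusted p = 0.0348 by limma).

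In untreated cells the Mx signals at 6 h and 3 h lay within the spread of replicates. Mx1 was at 0.01 ± 0.51 log2 (adjusted p = 0.998 by limma), 1387283_at at -0.18 ± 0.37 (0.946) and 1369202_at at -0.04 ± 3.11 (0.999), where 0.0902% of probe sets rose and 0.0999% fell. The order of the Mx1 group means was therefore interferon alpha at 6 h, interferon alpha at 3 h and the controls, of which only the 6 h treated group differed from its control by the test over all probe sets.

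The test of whether the response itself grew from 3 h to 6 h called 0 probe sets by limma and 0 with the replicate block, while 364 (1.17%) and 309 (0.995%) passed upwards and downwards at an unadjusted p under 0.05. The Mx1 response was 2.41 ± 0.72 log2 larger at 6 h than at 3 h (adjusted p = 1.00 by limma), the second largest value of all probe sets. That of 1387283_at was 1.04 ± 0.53 larger (adjusted p = 1.00) and that of 1369202_at 0.25 ± 4.40 larger (adjusted p = 1.00).

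The genes with the nearest profile were found as those whose log2 values, centred on their mean over the 12 arrays, had the smallest root mean square difference from the Mx probe set. For Mx1 they were the ubiquitin ligase Rnf213 (0.660 log2), the helicase Ddx60 (0.696), the RNA-sensing helicase Znfx1 (0.704), the death ligand TRAIL or Tnfsf10 (0.707), the mitochondrial nucleotide kinase Cmpk2 (0.738) and the RNA-binding Ifit2 (0.762), each over 12 arrays and on its nearest probe set. Their differences at 6 h ran from 3.02 to 5.16 log2, and Mx1 lay inside that range. The genes were picked by likeness over these same arrays, so similar differences follow from the selection. Among them Tnfsf10 was not called at 6 h (adjusted p = 0.0514 by limma).

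For Mx2 on 1387283_at the nearest were Usp18, which removes Isg15 from proteins and dampens receptor signalling (0.256 log2), the peptide transporter Tap1 (0.291), the ubiquitin-like Isg15 (0.306), the ADP-ribosyltransferase Parp14 (0.340), Ifi44 (0.345) and the phosphodiesterase Cnp (0.380). Their differences at 6 h ran from 1.72 to 2.68 log2, a likeness that again follows from the selection. Mx1 and 1387283_at differed from each other by 1.07 log2. At that distance 55 probe sets were nearer to Mx1, whereas 23686 were nearer to 1387283_at. For 1369202_at the nearest genes were RT1-CE10, Scd2, RT1-Bb, Tsx, Zfp212 and A1bg, at 2.06 to 2.46 log2, a much looser likeness. At 6 h these 6 genes differed between -0.14 and 0.20 log2 with interferon alpha.

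**Figure D4:**
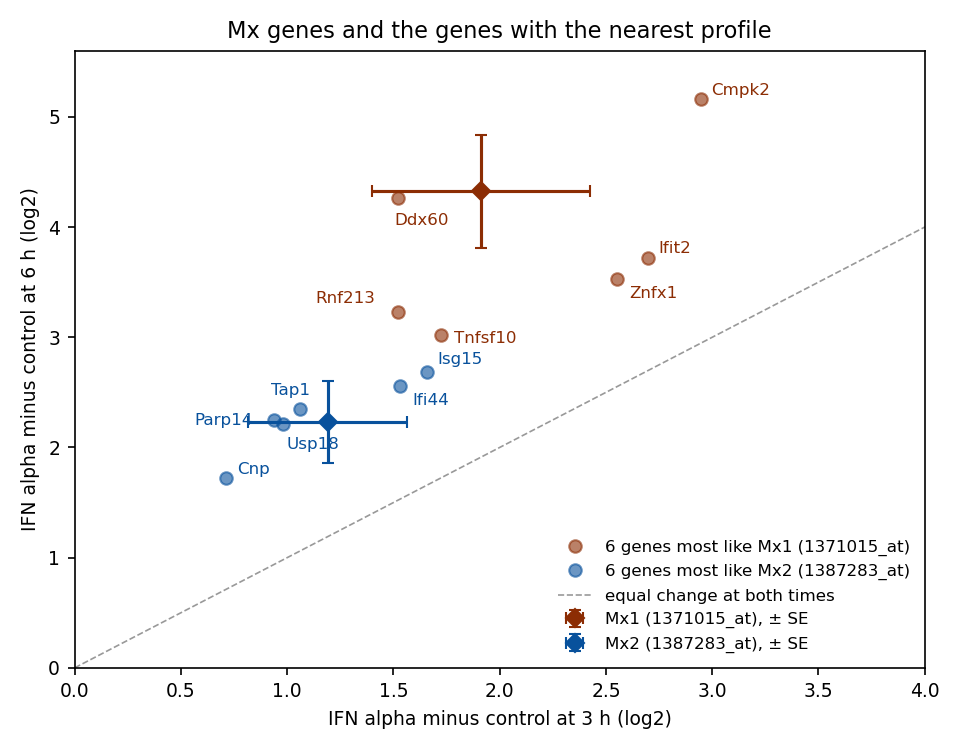
Treated minus control difference at 6 h (vertical axis, log2) against that at 3 h (horizontal axis, log2) for Mx1, Mx2 on 1387283_at (diamonds with SE) and the 6 genes nearest to each (circles). All 14 points lie above the dashed line of equal change, and the Mx2 group lies between 1.72 and 2.68 at 6 h.

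Of the 12 genes nearest to Mx1 or 1387283_at, 9 had a promoter in the RefSeq table and 6 of these held the element pair GAAANNGAA, whereas 9.71% of all promoters did. The sequence TTCNNNGAA was in 1 of the 9. The genes were found by their values, so the count is a description, and a match is not a binding site. The first match of each promoter is shown with its flanks, 5′ to 3′ on the strand of the gene, with the motif or its reverse complement in capitals. In GRCr8 they lie at chr16:33208894-33208922 (minus strand, Ddx60), chr2:112136795-112136823 (plus, Tnfsf10), chr6:48802749-48802777 (plus, Cmpk2), chr20:4668645-4668673 (minus, Tap1), chr11:78408048-78408076 (plus, Parp14) and chr2:243303847-243303875 (minus, Ifi44).

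Ddx60: gagatgaatgGAAACTGAAacttaaagct
Tnfsf10: tggctgtaaaTTCACTTTCacttttgctc
Cmpk2: tgcatctgccTTCACTTTCgtttccaggg
Tap1: ggtggctgctTTCGGTTTCttcttcctct
Parp14: tccaggaaatGAAAGTGAAagaagtaagt
Ifi44: cacactgagtTTCAGTTTCatttcccagg

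Their first capital lies between 25 and 134 bases before the start. Tnfsf10 and Cmpk2 share the same 9 letters, and the Parp14 match is their reverse complement. The Ifi44 match is likewise the reverse complement of the Ddx60 match.

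On chromosome 11 RefSeq places Fam3b between Mx1 and Mx2. Fam3b and the 4 nearest measured genes on each side, Igsf5, Pcp4, Dscam and the protease Bace2 before Mx1, and the protease Tmprss2, the kinase Ripk4, Prdm15 and C2cd2 after Mx2, had 0 of 9 calls at 6 h by limma, with or without the block, and 0 at 3 h. Over all probe sets 0.387% rose at 6 h by limma and 1.06% with the block, so 0 of 9 is near the background. At an unadjusted p under 0.05 by limma, 1 of the 9 passed at 6 h (Pcp4), where 2.56% of all probe sets passed upwards and 1.13% downwards. At 3 h 0 of 9 passed, and the share of all probe sets is not given there. Differences at 6 h ran from -0.20 log2 for Prdm15 to 0.30 for Pcp4, a calmodulin-binding peptide. Fam3b was at 0.13 ± 0.09 log2 and Tmprss2 at 0.15 ± 0.20 (SE). Fam3b was dim, with a mean of 3.03 log2 over all arrays, below the lower quartile.

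Of 14 measured dynamins and relatives, which remodel membranes at the plasma membrane, mitochondria, endoplasmic reticulum or endosomes, 0 passed at 6 h by limma, 0 with the block and 0 at an unadjusted p under 0.05, and the median was -0.07 log2, against -0.02 over all probe sets. Over all probe sets 0.387% rose by limma, and 2.56% and 1.13% passed upwards and downwards unadjusted, so a count of 0 among 14 is near the background. The brightest, the endoplasmic reticulum GTPases Atl2 and Atl3, were at -0.13 ± 0.18 and 0.03 ± 0.21 log2. Dynamin 2 (Dnm2), which pinches off endocytic vesicles, was at -0.16 ± 0.12, and the mitochondrial fission GTPase Dnm1l at -0.02 ± 0.34.

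Other interferon-inducible GTPases had a median of 2.87 log2 at 6 h over 8 measured genes, of which 4 rose, 4 did not pass and 7 rose with the block, where 0.387% of all probe sets rose by limma. The 4 were Ifgga2l1 at 3.92 ± 0.52 log2, Igtp at 2.89 ± 0.39, Irgm at 2.85 ± 0.26 and Irgm2 at 2.55 ± 0.26, immunity-related GTPases that act on vacuoles of intracellular pathogens. The guanylate-binding proteins Gbp2 and Gbp7 were 3.43 ± 1.06 and 3.60 ± 0.77 higher (adjusted p = 0.660 and 0.128, 0.000281 and 0.000774 with the block). With the block 1.06% of all probe sets rose and 0.0354% fell. Irgq was at -0.13 ± 0.16 log2.

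Other antiviral effectors had a median of 2.01 log2 at 6 h, and 15 of 29 measured genes rose, 14 did not pass and 22 rose with the block, against 0.387% and 1.06% of all probe sets. The 4 with the largest rise were Cmpk2 at 4.90 ± 0.54 log2 on its brightest probe set, Ifit3 at 4.49 ± 0.50, Ddx60 at 4.26 ± 0.75 and Znfx1 at 3.53 ± 0.33, which places Mx1 at 4.33 between Ifit3 and Ddx60. At 3 h the median was 0.89 log2, with 0 calls of 29 by limma and 5 with the block. Over all probe sets 0.00644% rose by limma and 0.0934% with the block. At an unadjusted p under 0.05, 15 of 29 passed at 3 h. The share of all probe sets at that threshold and time is not given, so this count cannot be set against the background.

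Along the route from the receptor to the promoter, the 3 calls at 6 h were transcription factors. Of 9 measured genes 3 rose at 6 h, 6 did not pass and 4 rose with the block, against 0.387% and 1.06% of all probe sets, and the median was 0.26 log2. The factors Irf7, Stat2 and Irf9 rose by 3.11 ± 0.36, 1.51 ± 0.21 and 1.20 ± 0.19 log2. Irf1 was 2.22 ± 0.42 log2 higher and passed only with the block (adjusted p = 0.0608 by limma, 0.00203 with the block), and Irf2 was at 0.26 ± 0.23 (adjusted p = 1.00). The receptor chains Ifnar1 and Ifnar2 were at -0.12 ± 0.18 and -0.11 ± 0.15, and the kinases Jak1 and Tyk2 at -0.13 ± 0.09 and 0.05 ± 0.11. Among 8 brakes on this route, 1 rose (Usp18 by 2.21 ± 0.35 log2, where 0.387% of all probe sets rose) and 7 did not pass, and the median was 0.01 log2. The phosphatase Ptpn11, the brightest of the others, was at 0.02 ± 0.12 log2 (adjusted p = 1.00).

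**Figure D5:**
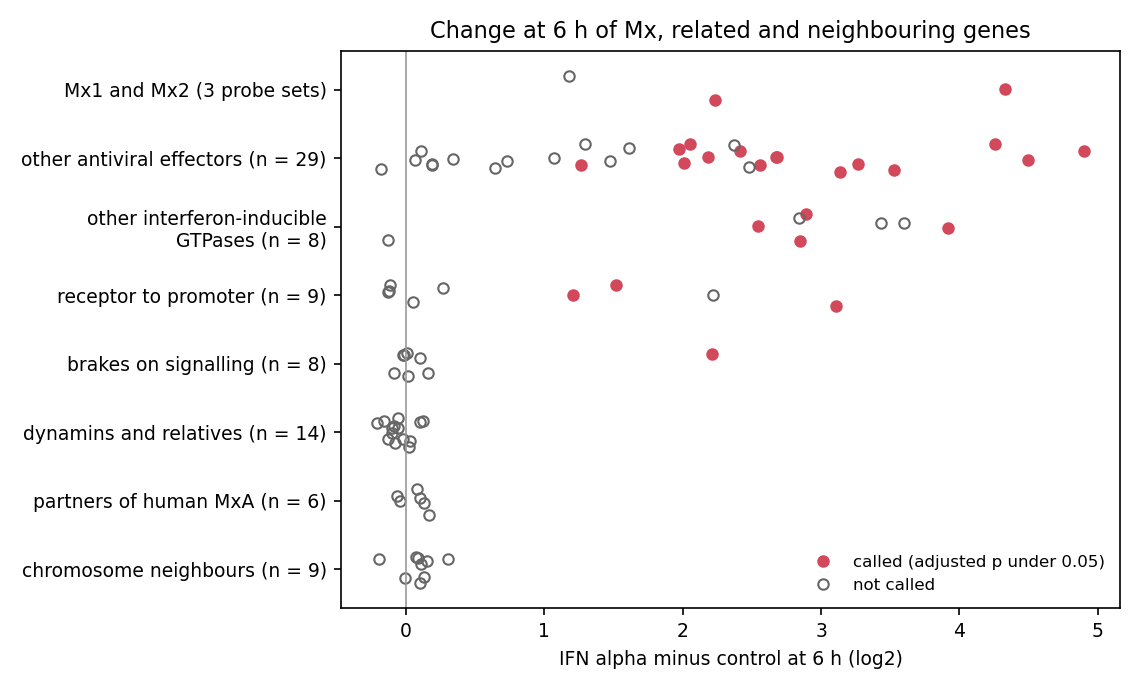
Treated minus control difference at 6 h in log2 (horizontal axis) for the 3 Mx probe sets, the members of 6 gene lists on their brightest probe set and the 9 chromosome neighbours (rows), filled where the limma adjusted p was under 0.05. Calls lie among the Mx probe sets, antiviral effectors, interferon-inducible GTPases, receptor to promoter genes and brakes, and the 14 dynamin relatives lie within -0.21 to 0.12.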

How the data were processed

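Signals were deposited on a log2 scale. Per the submitters' processing notes, the authors used affy, RMA and R 2.10.0. RMA subtracts background, makes array distributions equal and combines the probes of a set, so a change common to most transcripts is removed.

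After 57 control probe sets were left out, 31042 probe sets remained. The platform annotation named the genes; 20826 had 1 symbol, 436 had several and 9780 were unlisted. Symbols were matched to RefSeq (GRCr8), and 0 changed. A listed gene was taken on its brightest probe set. The promoter of Mx2 was not in the table used.

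Differences were tested with limma 3.58.1 (lmFit, eBayes) in R 4.3.3 in 1 fit over 12 arrays, with 8 residual degrees of freedom and Benjamini-Hochberg adjustment over all tested probe sets, called at an adjusted p under 0.05. All tests are two-sided, and p-values set a difference against the spread between these samples. Without the replicate block that spread includes differences between replicate numbers. The fits were tried on simulated data in which arrays varied independently, with no effect of replicate number. That trial does not show how either fit behaves on arrays paired by number. Same-numbered arrays of different groups correlated in their deviations from group means at 0.479 to 0.829 (18 pairs) and others at -0.562 to -0.0747, so by these data the numbers pair the arrays. The fit with the number as a block was an alternative, given where it changed a call or a count. Others were a block within each time, limma-trend, a level filter, median centring, repeated quantile normalization, only the 6 arrays compared and leaving out arrays. Leaving out a whole replicate number and taking the 3 numbers as units were added after the data were seen.

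Named genes were all Mx probe sets, the 6 nearest profiles for each, the 4 nearest measured neighbours on each side, and from each list up to 4 members with the largest called change at 6 h, or else the 2 brightest. Others were chosen after their values were seen: Dnm2, Dnm1l, Gbp2, Gbp7, Irgq, Ifnar1, Ifnar2, Jak1, Tyk2, Irf1, Irf2, Lcn2 and the markers of other cells. The members and lists were chosen with earlier results of these data known.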

Additional observations from a re-analysis of the deposited data

How the results depend on the processing

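The replicate block across both times called 340 probe sets at 6 h, 30 at 3 h, 341 on average, 3005 between times in treated cells and 2529 in untreated cells, against 120, 2, 135, 120 and 59 without it, and the block within each time called 341, 10, 399, 1872 and 1644. With the block the Mx1 difference between 6 h and 3 h in treated cells passed (2.42 log2 across both times, adjusted p = 0.00316; 2.18 within each time, 0.0477), and it changed no other call on Mx1 or Mx2 with all arrays in the fit. Limma-trend called 1 probe set at 3 h, 35 between times in treated cells and 8 in untreated cells. Median centring and a filter on level each called 1 at 3 h. With only the 6 arrays compared, 69 were called at 6 h, 0 at 3 h, 1 between times in treated cells and 2 in untreated cells, and Mx2 on 1387283_at was at 2.23 log2 and not called at 6 h (adjusted p = 0.0782). No called Mx difference changed sign under any alternative run.

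Leaving out 1 array, Mx1 at 6 h stayed called in 12 of 12 fits (3.68 to 4.74 log2) and on average in 12 of 12 (2.80 to 3.33), while Mx2 on 1387283_at was called at 6 h in 3 of 12 (2.01 to 2.61) and on average in 6 of 12 (1.55 to 1.93). Leaving out a whole replicate number, an alternative added after the data were seen, Mx1 lay between 3.86 and 4.58 log2 at 6 h and missed the threshold in 3 of 3 fits (adjusted p from 0.0642 to 0.197), but was called in 3 of 3 with the block (0.000462 to 0.0358); on average it lay between 2.63 and 3.51, called in 0 of 3 fits without the block (0.0844 to 0.138) and 3 of 3 with it. Mx2 on 1387283_at then lay between 1.88 and 2.66 log2 at 6 h and between 1.38 and 2.17 on average, and was called only without replicate 1, with or without the block. At 3 h Mx1 lay between 1.39 and 2.44 log2 and 1387283_at between 0.86 and 1.68, and each passed only without replicate 1 and with the block. Between times in treated cells Mx1 lay between 1.78 and 2.84 log2 and 1387283_at between 0.72 and 1.01, and of these fits 1387283_at was called only without replicate 1 and with the block (0.0348). Over all fits that left out an array or a number, with or without the block, the number of called probe sets ran from 0 to 291 at 6 h, 0 to 112 at 3 h, 0 to 330 on average, 0 to 18 for the growth of the response, 1 to 1609 between times in treated cells and 1 to 660 in untreated cells. The difference in change between Mx1 and Mx2 stayed between 1.15 and 1.61 log2 without any 1 array (exact p from 0.01 to 0.03). With the 3 replicate numbers as units, an alternative added after the data were seen, it was 1.41 log2 with an exact p of 0.25, the smallest possible. The cause of each lost call was not tested, beyond the fewer arrays. The dim Mx1 control signal limits its fold, and the number of arrays the precision.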

Other observations

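Reported partners of human MxA are the RNA helicases Ddx39b and Ddx39a and the channels of the Trpc family. They held 0 calls of 6 measured genes at 6 h by limma, 0 with the block and 0 at an unadjusted p under 0.05. The median was 0.09 log2. Over all probe sets 0.387% rose by limma and 1.06% with the block. Unadjusted, 2.56% passed upwards and 1.13% downwards, so a count of 0 among 6 is near the background. Ddx39b was at -0.04 ± 0.10 log2 and Ddx39a at 0.08 ± 0.10 (SE), and 3 of the 6 were below the lower quartile of the levels. Of the interferon genes themselves 3 were measured, Ifnb1, Ifng and Ifnk, and 3 of 3 were below the lower quartile. At 6 h Ifnb1 was at -0.27 ± 0.12 log2 and Ifnk at 0.04 ± 0.08, and 0 of 3 were called by limma, also at an unadjusted p under 0.05 and with the block. A count of 0 among 3 is near the same shares.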
